A study of Homo sapiens with 12 samples.

Results

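The response to loss of mitochondrial DNA (mtDNA) was compared between A549 and 143BTK- cells by the difference of their changes. For every probe set the mean log2 signal of ρ+ arrays was subtracted from that of ρ° arrays within each line, and the 143BTK- change was then subtracted from the A549 change. All 12 of the 12 arrays of the series entered this comparison, 3 in each of 4 groups, with 6 arrays a line. A positive difference therefore stands for a gene that rose more, or fell less, in A549 than in 143BTK-, and a negative difference for the opposite. Signals were never compared between the lines, because the authors had normalized each line on its own.

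A549 is a lung adenocarcinoma line and 143BTK- an osteosarcoma line without functional thymidine kinase, both human. The ρ° cells carried no mtDNA after 3 weeks in ethidium bromide at 50 ng/ml, a dye that blocks mtDNA replication, while ρ+ cells were the untreated parental cells. Cells of all 4 groups grew for 3 to 4 weeks in high-glucose medium with 10% serum, 1 mM pyruvate and 50 µg/ml uridine, the supplements that respiration-deficient cells need. The absence of mtDNA was checked by PCR or Southern blot. The ρ° cells were pooled without clonal selection, ethidium bromide was given only to the ρ° groups, and exposure to the dye and loss of mtDNA cannot be told apart. Each group had 3 biological replicates, and labelled cRNA made from 12 µg of total RNA per sample was hybridized to Affymetrix oligonucleotide arrays. In such bulk RNA, fewer cells expressing a gene and less RNA of that gene per cell cannot be told apart.

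As background, mtDNA encodes core subunits of the respiratory chain and the RNAs that translate them, so ρ° cells live by glycolysis and import all of their mitochondrial proteins from the cytosol. Signals from such mitochondria reach the nucleus, in what is called retrograde regulation, through stress kinases, metabolites and transcription factors. Which nuclear genes answer can depend on what a cell expresses beforehand, and A549 is an epithelial line whereas 143BTK- is mesenchymal.

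The labelled cell types could be checked only in part. Of 7 epithelial markers, 6 had a probe set among those kept in A549. The keratins KRT8 and KRT18 had mean signals of 3096 and 8169 in A549 ρ+ cells and of 1399 and 3190 in A549 ρ° cells. From ρ+ to ρ° cells of A549, the keratins KRT7 and KRT19 went from 1939 to 1410 and from 406 to 3.26. The cadherin CDH1 went from 264 to 121 at its kept probe set. However, the epithelial adhesion molecule EPCAM was under the limit in A549, at 5.92 in ρ+ and 2.20 in ρ° cells. EPCAM was above the limit in 143BTK-, at 33.2 and 34.5, as was the keratin KRT18 at 4547 in ρ+ cells. Of 6 mesenchymal markers, all 6 were kept in 143BTK-, where vimentin (VIM) had a mean of 6342 in ρ+ cells. However, 5 of these 6 were kept in A549 too, with VIM at 3173 in ρ+ cells. Of the 7 epithelial markers, 5 were kept in 143BTK-, so the counts of kept markers hardly separated the lines. The transcript of thymidine kinase (TK1) was kept in 143BTK-, at means of 87.8 in ρ+ and 54.4 in ρ° cells, which does not check the enzyme. The leukocyte antigen PTPRC had no mean above 4.08 in any group. Of 4 blood markers on the array, though, 2 had a probe set kept in A549 and 1 in 143BTK-. The monocyte marker CD14 was at 59.3 in ρ+ and 37.4 in ρ° cells of A549. Kept probe sets of the haemoglobin gene HBB lay at 19.2 to 41.8 over the 4 groups. No probe set with a single gene belonged to mtDNA (0 on the array), so the depletion itself was not measured here. Replicate arrays had a median SD of 0.272 to 0.359 on the log2 scale in the 4 groups.

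Of the 12139 probe sets kept in both lines, 237 had a change that differed between A549 and 143BTK-, which is 1.95% of those tested (limma with Benjamini-Hochberg adjustment, threshold 0.05). The A549 change lay above the 143BTK- change at 129 (1.06%) and below it at 108 (0.89%), and 2100 probe sets had an unadjusted p under 0.05. At the 202 with all 4 group means above the limit given below, the called differences ran from 0.72 to 5.31 in size, with a median of 1.80 (log2), against a median SE of 0.44 over all tested probe sets. The median difference of all probe sets was 0.01. The count depended on single arrays: it was 61 without A549 ρ° A, 125 without A549 ρ° B, 148 without A549 ρ+ A, 78 without A549 ρ+ B, 89 without 143BTK- ρ° A, 112 without 143BTK- ρ+ A and 151 without 143BTK- ρ+ B. The sign of all 237 differences was kept in each of those fits.

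Most of these differences were changes of A549 that 143BTK- did not share at the same threshold. With an unadjusted p under 0.05 in limma taken as a change in one line, 156 of the 237 (65.8%) had changed in A549 alone, 85 with a positive and 71 with a negative difference. Another 13 (5.49%) had changed in 143BTK- alone, and 67 (28.3%) had changed in both lines in opposite directions, which is 0.552% of all probe sets tested. A single probe set, that of the secreted protease inhibitor SLPI, had fallen in both lines, by 2.88 in A549 and by 0.78 in 143BTK- on the log2 scale. The 143BTK- signal of SLPI was low, at means of 33.3 in ρ+ and 19.4 in ρ° cells. The A549 change was the larger of the pair at 212 of the 237. Median absolute changes were 1.51 in A549 and 0.45 in 143BTK- at called probe sets, against 0.37 and 0.26 over all probe sets. The median SD between replicates was larger in 143BTK-, at 0.307 in ρ+ and 0.359 in ρ°, than in A549, at 0.297 and 0.272, and its part in this was not tested.

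The ρ° and ρ+ arrays of A549 did not overlap at 225 of the 237 called probe sets, and those of 143BTK- did not overlap at 89. Among all tested probe sets the corresponding shares were 32.1% and 14.9%. The called probe sets were chosen for large differences on these same arrays, so their larger shares follow from that choice and are no further support. Of the 237, 204 had a single gene in the array annotation, and these stood for 179 genes. At 35 of the 237 at least 1 of the 4 group means lay under the lowest mean signal kept in that line, 19.1 in A549 and 12.6 in 143BTK-, and no size of difference is given for those.

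**Figure D1:**
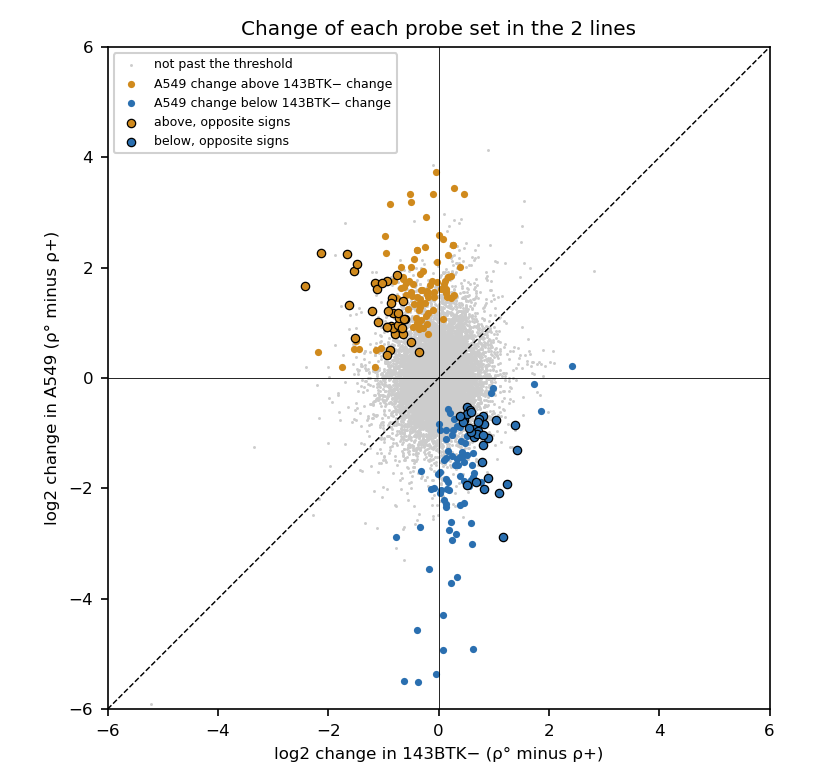
Log2 change (ρ° minus ρ+) of each of the 12139 probe sets in 143BTK- on the horizontal axis and in A549 on the vertical axis. Grey points did not pass the threshold on the difference, orange and blue points are the 129 and 108 that did, black outlines mark the 67 with opposite changes, and the dashed line marks equal changes. Called points lie mostly along the vertical axis, where A549 changed and 143BTK- hardly did.

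Among probe sets with all 4 means above the limit, the largest negative differences were those of GPX2 and CEACAM6, both from losses in A549. GPX2 (chr14:64939158-64942745, GRCh38.p14) encodes a glutathione peroxidase of epithelial cells that reduces peroxides. Its signal was 1512, 1512 and 1375 on the A549 ρ+ arrays and 40.3, 21.9 and 51.3 on the A549 ρ° arrays. In 143BTK- it was 27.3, 10.9 and 29.0 in ρ+ and 16.1, 21.9 and 22.1 in ρ° cells. The A549 groups were far apart, whereas the 143BTK- groups overlapped at a signal close to the lowest mean kept in that line. GPX2 fell by 5.36 (log2) in A549 and had a 143BTK- change of -0.05, a difference of -5.31 ± 0.54 (SE; adjusted p = 0.000271, limma).

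CEACAM6 (chr19:41755530-41772211) encodes a surface adhesion glycoprotein of epithelia and of many carcinomas. The A549 ρ+ arrays gave 998, 1270 and 1102 and the A549 ρ° arrays 29.6, 20 and 24.7. The 143BTK- ρ+ arrays gave 26.4, 19.7 and 29.8 and the ρ° arrays 13.2, 22.1 and 24.4. The picture was that of GPX2, with no overlap in A549 and overlapping low signals in 143BTK-. The difference of -5.14 ± 0.42 had the smallest adjusted p of all probe sets tested (5.64e-05, limma). A second CEACAM6 probe set fell from a mean of 608 to 4.26 in A549 but was not kept in 143BTK- and so was not tested. At signals this low a further fall could hardly be measured. At 31 of the 237 called probe sets (13.1%) both 143BTK- means were under 37.7, which is 3 times the lowest mean kept, against 19.9% of all tested. Of these 31, 20 were among the 108 with a negative and 11 among the 129 with a positive difference. Among the 12 largest negative differences this held for GPX2, CEACAM6, SLC7A7, PIP, SLC27A2, CNTN1, INPP4B and SULT1A1.

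IGFBP3 (chr7:45912245-45921272), which encodes the main circulating carrier of insulin-like growth factors, changed in both lines, in opposite directions. Its signal fell from 981, 1002 and 1587 on A549 ρ+ arrays to 159, 167 and 150 on A549 ρ° arrays. In 143BTK- it rose from 85.4, 179 and 123 to 307, 210 and 334. The groups overlapped in neither line. The change was -2.87 in A549 and 1.17 in 143BTK-, a difference of -4.04 ± 0.40 (adjusted p = 0.000265, limma), and the gene's other probe set had -2.08, 1.09 and a difference of -3.17 (adjusted p = 0.000712).

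OLFML3 (chr1:113979474-113982253), a secreted olfactomedin-domain glycoprotein, was the mirror image of IGFBP3. On A549 arrays the signal was 85.1, 64 and 91.8 in ρ+ and 353, 278 and 548 in ρ° cells. On 143BTK- arrays it was 32.6, 68.3 and 52.6 in ρ+ and 23.4, 8.00 and 19.8 in ρ° cells. It thus rose in A549 by 2.25 and fell by 1.66 in 143BTK- (log2) with no overlap in either line, a difference of 3.91 ± 0.57 (adjusted p = 0.00404, limma), or 2.12 with 64 added to every signal before log2.

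VCAN (chr5:83471744-83582302) encodes versican, a large proteoglycan of the extracellular matrix, and all 5 of its probe sets kept in both lines passed the threshold, with differences of 2.43 to 3.86 at the 4 with every mean above the limit. At the probe set with the largest difference the A549 signal went from 55.6, 42.4 and 175 in ρ+ to 1201, 514 and 692 in ρ° cells. In 143BTK- it was 43.8, 34.2 and 88.9 in ρ+ and 25.5, 47.3 and 37.3 in ρ° cells. The A549 groups were apart and the 143BTK- groups overlapped, with an A549 change of 3.34 and a difference of 3.86 ± 0.71 (adjusted p = 0.0164, limma). The adjusted p of that probe set was 0.0557 without A549 ρ° A.

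The 250 bases before the annotated start of GPX2, CEACAM6, IGFBP3 and OLFML3 are shown because these genes had the largest differences in each direction among those above the limit and, for the last pair, opposite changes. They are from RefSeq (GRCh38.p14), 5′ to 3′ on the strand of the gene. Capitals mark matches to any of 9 short motifs searched on both strands.
GPX2, chr14:64942746-64942995, minus strand: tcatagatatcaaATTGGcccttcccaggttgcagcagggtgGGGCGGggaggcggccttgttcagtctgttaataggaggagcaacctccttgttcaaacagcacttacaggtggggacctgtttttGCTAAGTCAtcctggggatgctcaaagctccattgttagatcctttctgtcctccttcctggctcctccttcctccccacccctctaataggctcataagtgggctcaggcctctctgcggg
CEACAM6, chr19:41755280-41755529, plus strand: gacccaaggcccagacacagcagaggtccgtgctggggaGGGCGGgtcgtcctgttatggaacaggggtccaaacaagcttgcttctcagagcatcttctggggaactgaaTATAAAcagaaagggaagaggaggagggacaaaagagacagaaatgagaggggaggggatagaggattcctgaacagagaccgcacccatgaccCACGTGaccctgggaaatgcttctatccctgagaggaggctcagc
IGFBP3, chr7:45921273-45921522, minus strand: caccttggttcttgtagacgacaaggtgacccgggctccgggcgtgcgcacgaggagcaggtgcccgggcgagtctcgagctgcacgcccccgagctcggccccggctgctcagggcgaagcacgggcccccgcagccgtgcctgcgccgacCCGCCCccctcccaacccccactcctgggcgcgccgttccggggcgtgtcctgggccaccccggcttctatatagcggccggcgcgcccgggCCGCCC
OLFML3, chr1:113979224-113979473, plus strand: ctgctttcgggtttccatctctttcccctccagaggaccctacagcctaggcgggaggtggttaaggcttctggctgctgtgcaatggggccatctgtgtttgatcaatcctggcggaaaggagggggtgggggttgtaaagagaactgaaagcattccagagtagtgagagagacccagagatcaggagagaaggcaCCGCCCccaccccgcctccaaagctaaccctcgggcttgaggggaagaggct
The motifs were the amino acid response element (TGATGNAA), the TATA box that positions polymerase (TATAAA), the cAMP response element (TGACGTCA), the CCAAT box, which is its own letters, a hypoxia response core (ACGTG), the GC box bound by SP factors (GGGCGG), an antioxidant response core (TGACNNNGC), an AP-1 site (TGANTCA) and an E-box (CACGTG), the last of which contains the hypoxia response core on either strand. Upstream of GPX2 the capitals are, in order, a CCAAT box, a GC box and an antioxidant response core. The CEACAM6 window held a GC box, a TATA box at position -139 and an E-box with its overlapping hypoxia response cores, and the windows of IGFBP3 and OLFML3 held GC boxes only.

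The same letters were counted in the windows of all called genes. The antioxidant response core was in 11.6% of the 86 windows of genes with a positive difference and in 9.84% of the 61 of genes with a negative difference, against 12.4% of 6256 windows of tested genes and 11% of all 27305 windows. The GC box was in 76.7% and 65.6%, against 68.9% of tested genes and 42.3% of all. Median GC content of the windows was 68.8% for genes with a positive and 61.6% for genes with a negative difference, against 65.2% for all tested genes and 58.0% for all windows.

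Of 20 measured genes of drug metabolism and efflux, 2 passed with a positive and 1 with a negative difference, and the median difference of the 20 was 0.11. That is 15% of the group, against 2.04% of all 7488 genes counted by 1 probe set each. GSTM3, a glutathione S-transferase, rose from 20.8, 29.7 and 30.0 to 92.3, 83.5 and 86.2 in A549 and fell from 455, 735 and 918 to 308, 323 and 276 in 143BTK-. The groups overlapped in neither line, and the difference was 2.88 ± 0.37 (adjusted p = 0.00254, limma). ALDH3A2, the fatty aldehyde dehydrogenase, passed at all 3 of its probe sets with differences of 2.68, 2.61 and 1.58, each with a rise in A549 and a fall in 143BTK-, although the last lost its call in 7 of the 12 fits with 1 array left out (adjusted p in limma of up to 0.0828). At the first of these the A549 arrays went from 151, 117 and 98.2 to 575, 410 and 282 and the 143BTK- arrays from 107, 81.5 and 117 to 56.0, 40.8 and 64.5. Neither line had overlapping groups there.

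SLCO4A1, an organic anion and thyroid hormone transporter, rose by 1.62 in A549 and fell by 1.12 in 143BTK- (difference 2.75 ± 0.50). SLC4A7, a sodium bicarbonate cotransporter, rose by 2.01 in A549 with a 143BTK- change of -0.68 (difference 2.68 ± 0.50), but its other probe sets had differences of 1.32 and 1.69 that did not pass, and the adjusted p in limma was 0.0536 without A549 ρ° A. MMD, a membrane protein first found in maturing macrophages, had A549 signals of 321, 311 and 524 in ρ+ and 1820, 1814 and 1972 in ρ° cells, and 143BTK- signals of 205, 139 and 279 and of 109, 184 and 177. Only the A549 groups were apart, and the difference was 2.71 ± 0.40. PLAC8 also had a difference of 2.71 (SE 0.46), from a rise by 2.32 in A549 and a 143BTK- change of -0.39.

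ROBO1, a receptor for the guidance ligands SLIT, was the clearest case of a rise in A549 beside no measurable change in 143BTK-. Its A549 signal was 32.1, 24.8 and 38.6 in ρ+ and 160, 251 and 171 in ρ° cells, and its 143BTK- signal 157, 121 and 105 in ρ+ and 154, 101 and 129 in ρ° cells. The changes were 2.60 and 0.00, the difference 2.60 ± 0.39 (adjusted p = 0.00468, limma). FXR1, an RNA-binding protein of the fragile X family, had a difference of 2.63 ± 0.52 at 1 of its 3 probe sets, and the others, at 0.68 and 1.48, did not pass. The FXR1 call was lost without A549 ρ+ B (adjusted p = 0.0648, limma) and without 143BTK- ρ° A. PMAIP1, the pro-apoptotic BCL2-family protein NOXA, rose by 2.02 in A549 with a 143BTK- change of -0.50 (difference 2.51 ± 0.52), and its call was lost in 6 of the 12 fits with 1 array left out, with an adjusted p of up to 0.0819.

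SYNGR1, a synaptic vesicle membrane protein, changed in 143BTK- and not measurably in A549. In 143BTK- the signal fell from 38.2, 100 and 73.5 to 19.8, 14.8 and 10.3, while in A549 it was 95.8, 115 and 75.0 in ρ+ and 140, 137 and 114 in ρ° cells. Groups were apart in 143BTK- and overlapped in A549. The changes were -2.18 and 0.46, the difference 2.65 ± 0.50 (adjusted p = 0.0187, limma, and 0.0621 without A549 ρ° A), and 2 further probe sets of the gene had differences of -0.71 and 0.20 that did not pass.

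At the named genes with a negative difference the signal fell in A549. CAMK2N1, an inhibitor of calmodulin-dependent kinase II, fell in A549 from 238, 291 and 367 to 20.1, 44.8 and 20.7. In 143BTK- it was 513, 305 and 526 in ρ+ and 317, 519 and 351 in ρ° cells. The groups overlapped in 143BTK- only, and the difference was -3.30 ± 0.47 (adjusted p = 0.0035, limma). ATP1B1, the beta subunit of the sodium pump, fell in A549 from 1293, 1846 and 997 to 154, 189 and 265 and had 143BTK- signals of 167 to 445 in ρ+ and 244 to 369 in ρ° cells, a difference of -2.95 ± 0.48, with -2.33 at its other probe set.

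SLC27A2, a fatty acid transporter and very-long-chain acyl-CoA synthetase, fell in A549 at both of its probe sets, with changes of -2.83 and -2.34 (differences -3.14 and -2.47). PIP, a secreted protein of exocrine glands, fell by 2.93 in A549 (difference -3.17 ± 0.51). SULT1A1, a phenol sulfotransferase with near-identical family members that can share probes, fell in A549 with changes of -2.30 and -2.03 (differences -2.69 and -2.07), the latter probe set losing its call in 10 of the 12 fits with 1 array left out (adjusted p in limma of up to 0.0958). In 143BTK- both means of each of these probe sets were under 37.7, which is 3 times the lowest mean kept.

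The amino acid transporters SLC7A7 and SLC7A5, light chains that pair with the same heavy chain at the cell surface, both had negative differences. They were the 2 of 16 measured amino acid transporters to pass (12.5%, against 2.04% of all genes). Of the 16, 4 had a positive and 12 a negative difference, from -3.62 to 4.09 with a median of -0.58. At an unadjusted p under 0.05 in limma there were 3 positive and 2 negative ones, against 17.3% of all genes. SLC7A5, which imports large neutral amino acids, fell in A549 from 1727, 1365 and 1323 to 342, 319 and 484, and in 143BTK- was 264, 332 and 378 in ρ+ and 585, 276 and 648 in ρ° cells. Only the A549 groups were apart, and the difference was -2.51 ± 0.41 (adjusted p = 0.00781, limma). SLC7A7, the exporter of cationic amino acids, had a difference of -3.62 ± 0.78 that lost its call in 8 of the 12 fits with 1 array left out, with an adjusted p of up to 0.0884. CNTN1, a neuronal adhesion molecule, had -2.83 ± 0.59 and lost its call in 4 of those fits (up to 0.0834). In 143BTK- both means of SLC7A7 and of CNTN1 were under 37.7, which is 3 times the lowest mean kept. For SLC7A7 they were 13.4 in ρ+ and 20.4 in ρ° cells.

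Sizes of differences at low signals depended on the scale. With 64 added to every signal before log2, which shrinks changes of dim probe sets most, 32 of the 73 named probe sets had a difference over 1.5 times smaller, 19 of them above the limit. Besides OLFML3, positive differences became 1.76 for GSTM3, 1.58 for PLAC8, 1.57 for FXR1, 1.41 for ROBO1, 1.30 for OTUB2, 1.23 for SLC4A7, 1.07 for UTP3, 1.03 for SYNGR1, 0.97 for CDC5L, 0.94 for HSPA4 and 0.83 for SREBF1. Negative ones became -2.03 for SLC27A2, -1.84 for PIP, -1.82 for CAMK2N1, -1.56 for SLC7A7, -1.22 for CNTN1, -0.96 for ORC6 and -0.93 for INPP4B.

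**Figure D2:**
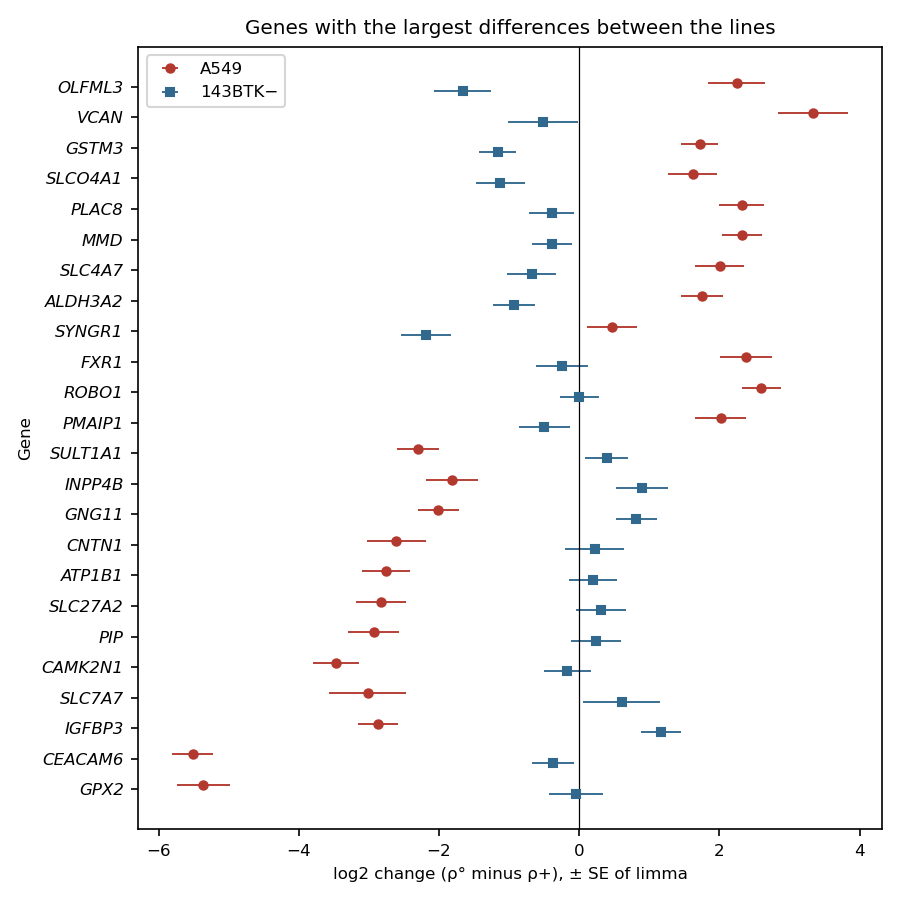
Log2 change (ρ° minus ρ+) in A549 (circles) and 143BTK- (squares) of the 24 genes with the largest differences among those with all 4 group means above the limit, with the SE from limma, 12 in each direction. The A549 value lies to the right of the 143BTK- value for the upper 12 and to the left for the lower 12, and 143BTK- values lie mostly within 1 of 0.

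Opposite changes were described for the genes whose smaller change was largest. Besides OLFML3, IGFBP3, GSTM3, SLCO4A1 and ALDH3A2, OTUB2, a deubiquitinating enzyme, rose in A549 from 46.7, 34.8 and 31.7 to 86.5, 67.9 and 109 and fell in 143BTK- from 172, 117 and 165 to 66.7, 59.8 and 68.6. The changes were of nearly the same size, 1.21 and -1.20, with no overlap in either line and a difference of 2.41 ± 0.38 (adjusted p = 0.00584, limma). GNG11, a gamma subunit of heterotrimeric G proteins, went the other way, by -2.01 in A549 and 0.82 in 143BTK- (difference -2.83 ± 0.41).

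INPP4B, a phosphatase of phosphoinositides, fell in A549 from 75.5, 88.7 and 95.5 to 18.4, 23.0 and 34.7 and rose in 143BTK- from 19.9, 13.9 and 7.70 to 25.5, 25.5 and 21.1. The groups were apart in both lines, but the 143BTK- ρ+ mean of 12.9 was just above the limit, and the call was lost in 3 of the 12 fits with 1 array left out, with an adjusted p of up to 0.0681 in limma. PDLIM5, a scaffold protein of the actin cytoskeleton, UTP3, a component of ribosome assembly, and CDC5L, a splicing factor, rose by 1.21, 0.92 and 0.94 in A549 and fell by 0.92, 0.94 and 0.86 in 143BTK-. Their differences of 2.13, 1.86 and 1.80 lost their calls in 7, 8 and 9 of those fits, with adjusted p of up to 0.0900, 0.0797 and 0.0982. PDLIM5 passed at 1 of 5 probe sets and CDC5L at 1 of 3.

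**Figure D3:**
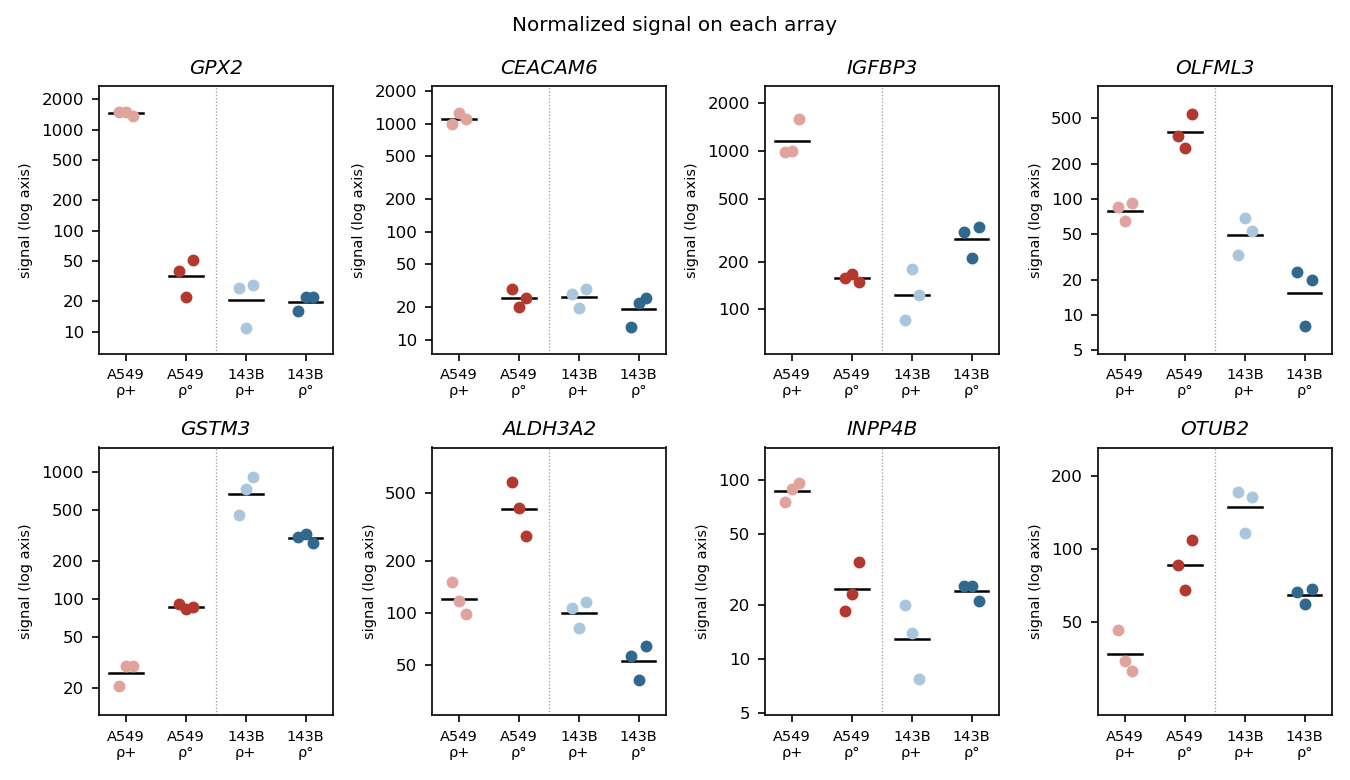
Signal on each of the 12 arrays for 8 genes, on log axes, with a black line at the geometric mean of each group of 3. Panels are read within a line only (left and right of the dotted line), since the lines were normalized separately: GPX2 and CEACAM6 dropped in A549 alone, and the other 6 moved in opposite directions with no overlap.

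Some differences passed the threshold although a group was under the limit, and only their signals are given. EFEMP1, an extracellular matrix glycoprotein, was at 134, 130 and 207 in A549 ρ+ cells and at 14.2, 1.70 and 5.40 in A549 ρ° cells, with 421, 622 and 613 in 143BTK- ρ+ and 1108, 1000 and 519 in 143BTK- ρ° cells. FBN2 (fibrillin 2, of elastic fibres) and the transcription factor NFIB, at all 3 of its probe sets, also had A549 ρ° means under the limit. The 143BTK- groups overlapped for NFIB but not for FBN2, with 275, 233 and 197 in ρ+ and 282, 306 and 296 in ρ° cells. In the other direction, ARG2, the mitochondrial arginase, was at 13.4, 15.9 and 16.2 in A549 ρ+ and 54.3, 84.5 and 42.6 in A549 ρ° cells, and went from 212, 404 and 528 to 71.1, 196 and 137 in 143BTK-. The ARG2 groups were apart in both lines, but the gene's other probe set had a difference of 0.70 that did not pass. TCP11L1, CA8, DLK2 and GPRC5C had positive differences with at least 1 mean under the limit.

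Single genes of respiratory complexes I and IV differed between the lines. One probe set a gene was used for gene groups, and over all 7488 genes 78 had a positive and 75 a negative difference past the threshold (2.04%), with a median difference of -0.01. Counts past the threshold in each group below are to be read beside that share. Of 28 complex I subunits 1 passed in each direction, which is 7.14% in all. NDUFC1 rose in A549 from 661, 688 and 553 to 845, 854 and 843 and fell in 143BTK- from 736, 878 and 881 to 368, 455 and 494, a difference of 1.35 ± 0.24 (adjusted p = 0.0145, limma), or 0.0698 with changes centred on chromosome medians. NDUFS6 fell in A549 from 752, 861 and 768 to 466, 594 and 490 and rose in 143BTK- from 807, 1216 and 750 to 1450, 1257 and 1381. Neither gene had overlapping groups, but the NDUFS6 difference of -1.22 ± 0.27 lost its call in 8 of the 12 fits with 1 array left out, with an adjusted p of up to 0.110.

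Of 16 genes of complex IV subunits and assembly 2 passed (12.5%, against 2.04% of all genes). These were COX5A with -1.03 ± 0.20 and COX4I1 with -0.84 ± 0.19, both lower in A549 ρ° cells. COX4I1 lost its call in 11 of the 12 fits with 1 array left out, with an adjusted p of up to 0.279 in any alternative. COX5A lost its call in 2 (up to 0.0621), with chromosome medians subtracted (0.0852) and without the intensity trend of the variance (0.0724). None of 9 genes of complex III and cytochrome c, 18 of ATP synthase and nucleotide carriers, 20 of mtDNA maintenance and expression or 46 mitochondrial ribosomal proteins passed in limma, with 1, 6, 1 and 7 genes at an unadjusted p under 0.05, as 17.3% of all genes had (1297). Transcripts followed by other methods too were examined in the same fit. TFAM, the packaging factor of mtDNA, had differences of -0.02 to -0.48, ELAC2, an RNase of tRNA ends, -0.34 ± 0.49, ATP5F1D, of the ATP synthase, 0.22 and 0.41, PHB1, the prohibitin, -0.55 and -0.42, and the control GAPDH -0.25 to 0.16. All of these were within 2 SE of 0 and did not pass.

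Cell cycle genes had one-sided differences, with few single genes past the threshold. Of 33 genes of mitosis and the spindle, 31 had a negative difference and 1 passed, with a median of -0.70, from median changes of -0.85 in A549 and -0.17 in 143BTK-. Of 43 genes of DNA replication and the G1/S step, 38 were negative and 2 passed, with a median of -0.51. The genes that passed were CDC25B, a phosphatase that activates mitotic kinases (-1.27 ± 0.26), ORC6, of the origin recognition complex (-1.73 ± 0.38), and POLD2, a subunit of DNA polymerase delta (-1.48 ± 0.31). ORC6 fell in A549 from 177, 142 and 128 to 43.5, 34.4 and 58.0 with 143BTK- groups that overlapped, whereas POLD2 fell in A549 and rose in 143BTK-. Their calls were lost in 6, 8 and 6 of the 12 fits with 1 array left out, with adjusted p in limma of up to 0.0709, 0.0920 and 0.0806. With chromosome medians subtracted the adjusted p was 0.0683 for ORC6 and 0.107 for POLD2.

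The shift of these groups was not the same on all arrays. For each array the median deviation of the mitosis genes from the line's ρ+ mean was taken. It was -0.39, -0.12 and 0.43 on A549 ρ+ arrays A, B and C and -0.92, -1.36 and -0.10 on A549 ρ° arrays A, B and C, so that A549 ρ° C lay within the ρ+ range. In 143BTK- the values were -0.03 to 0.03 in ρ+ and -0.34 to 0.01 in ρ° cells. The median difference of the mitosis genes was -1.09 without A549 ρ° C and -0.35 without A549 ρ° B. For DNA replication it ran from -0.80, without A549 ρ° C, to -0.28, with the C arrays of both parental groups left out.

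Adhesion receptors leaned the other way. Of 20 measured, 18 had a positive difference and 1 passed, with a median of 0.70 and a median change of 0.73 in A549 and 0.11 in 143BTK-. Here the arrays of A549 were apart, at -0.11 to 0.11 in ρ+ and 0.61 to 0.88 in ρ° cells. VCAM1, a ligand of leukocyte integrins, passed with A549 signals of 11.8, 8.30 and 20.7 in ρ+ and 163, 194 and 65.2 in ρ° cells, the former under the limit. In 143BTK- its means were 10.9 in ρ+ cells, also under the limit, and 15.1 in ρ° cells, just above it. ALCAM, a homophilic adhesion molecule, passed at a probe set that did not stand for the gene in the count, where A549 went from 122, 125 and 183 to 989, 826 and 646 and 143BTK- was 148 to 230 in ρ+ and 187 to 221 in ρ° cells (difference 2.45 ± 0.35, adjusted p = 0.00345, limma). VCAM1 lost its call in 9 of the 12 fits with 1 array left out (up to 0.138), and the median of the adhesion receptors was 0.40 with 64 added to every signal.

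Of 18 genes of the integrated stress response, the programme that ATF4 runs when translation initiation is curbed, 15 had a negative difference, with median changes of -0.05 in A549 and 0.45 in 143BTK- and a median difference of -0.57. No member passed, 5 had an unadjusted p under 0.05 in limma against 17.3% of all genes, and the array medians of 143BTK- overlapped, at -0.18 to 0.31 in ρ+ and 0.13 to 0.56 in ρ° cells. With 64 added to every signal the median was -0.28. Genes of the EGF receptor family and its targets were positive in 17 of 20 with a median of 0.36 and 0 past the threshold in limma, 2 at an unadjusted p under 0.05 (against the same 17.3%), and the median was 0.14 without 143BTK- ρ+ C and 0.59 without A549 ρ° A. Of 23 genes of folding in the endoplasmic reticulum 18 were positive (median 0.27) and 1 passed, SDF2L1, a chaperone component, which fell in 143BTK- from 175, 208 and 310 to 83.7, 96.9 and 68.4 (difference 1.97 ± 0.37). The median of the folding genes was 0.42 without 143BTK- ρ+ A.

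**Figure D4:**
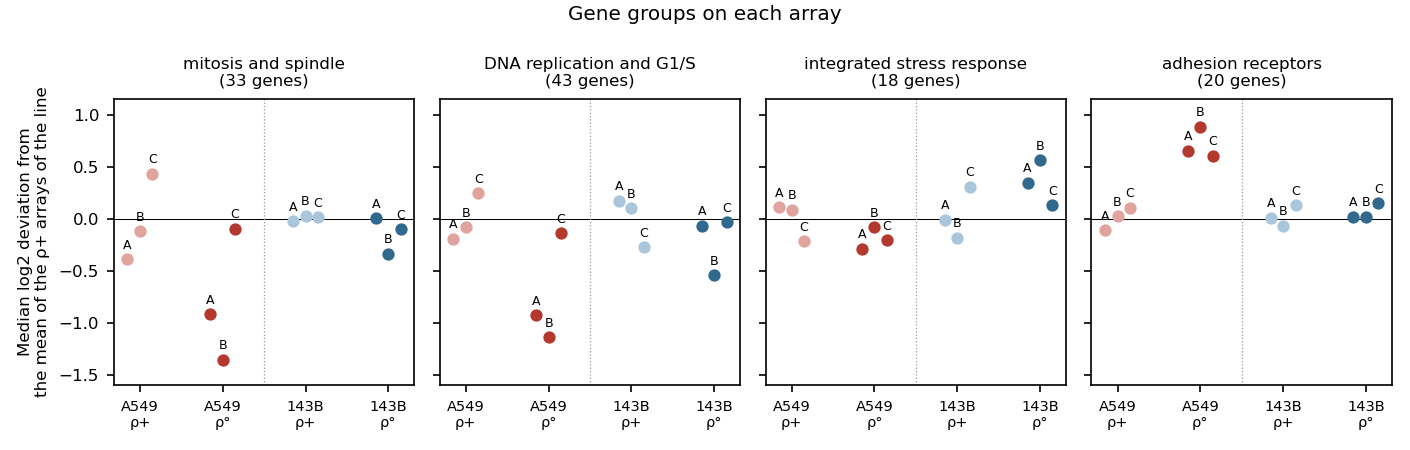
Median log2 deviation of 4 gene groups on each array from the ρ+ mean of that line, with the replicate letter above each point. A549 ρ° arrays A and B lie at -0.92 and -1.36 for mitosis genes and array C at -0.10, and all 3 lie above the ρ+ arrays for adhesion receptors.

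In other groups single genes passed. SREBF1, the transcription factor of lipid synthesis, fell in 143BTK- from 70.4, 65.3 and 79.7 to 34.7, 27.7 and 35.7 while the A549 groups overlapped (difference 1.65 ± 0.37), and it was the 1 of 24 sterol and fatty acid synthesis genes to pass. Of 32 lysosomal genes 4 passed: GAA (2.23) and CTSA (1.37), an acid glucosidase and a protective carboxypeptidase, with positive differences, and LIPA (-1.14), the acid lipase, and GPNMB, a lysosomal membrane glycoprotein, with negative ones. IGFBP4, another carrier of insulin-like growth factors, rose in A549 from 2896, 1594 and 2068 to 5494, 6146 and 6101 (difference 1.32 ± 0.30), opposite in sign to IGFBP3. Of 12 genes in the insulin-like growth factor pathway these 2 passed.

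Of 34 translation factors 2 passed (5.88%, against 2.04% of all genes), each with opposite changes in the lines. These were EIF4E, the cap-binding protein, at 1.39 ± 0.28 and EIF3K, of an initiation complex, at -1.04 ± 0.20. The group had 18 positive and 16 negative differences, with a median of 0.02. Of 53 splicing factors 2 passed, LSM5 (-1.80 ± 0.27) and SNRPE (-1.07 ± 0.21), and the group's median was -0.22, or -0.07 with all probe sets of a gene averaged. Further members past the threshold were PSMC6, a proteasome ATPase (1.43), the small heat shock protein HSPB1 (-1.56), COL5A2, a fibrillar collagen (-1.48), SLPI (-2.10), and H2BC21, a histone with a group under the limit. PLOD2, CLU, ALDOA, RPL24 and HSPA4 passed at probe sets that did not stand for the gene, with differences of 2.06, 1.67, -0.83, 0.82 and 1.49. In a wider list of epithelial markers, 13 of 16 measured genes had a negative difference, with a median of -0.49. Their median change was -0.35 in A549 and -0.09 in 143BTK-. The 2 that passed were CEACAM6 and SLPI (12.5%, against 2.04% of all genes). Leaving out 1 array ended the call of IGFBP4, LIPA, GAA, SREBF1, EIF4E, PSMC6, HSPB1 and COL5A2 in 5 to 11 of 12 fits, with adjusted p in limma of up to 0.139. It ended that of SLPI, H2BC21, CLU, ALDOA, RPL24 and HSPA4 in 8 to 11, of EIF3K, SNRPE and GPNMB in 4, 3 and 2, and of CTSA without A549 ρ° A (0.0616), but in no fit that of LSM5, ALCAM, PLOD2, SDF2L1 or SLC7A5.

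Whole chromosomes also differed in their change between the lines. For each array the mean log2 signal of a chromosome was taken relative to all others, and the difference of changes passed the threshold for 17 of 23 chromosomes (73.9%, limma), with A549 above 143BTK- for 10 and below for 7. The 23 values are not independent, because a fall on some chromosomes raises the others on this relative scale. Small differences can therefore be a counterweight to larger ones elsewhere. Chromosome 7 had the largest, -0.46 ± 0.03 (adjusted p = 1.62e-07). Its mean was 0.11, 0.14 and 0.15 on A549 ρ+ arrays and -0.21, -0.22 and -0.21 on A549 ρ° arrays, and -0.12, -0.08 and -0.07 on 143BTK- ρ+ and 0.04, -0.0027 and 0.03 on 143BTK- ρ° arrays. The groups overlapped in neither line. Chromosome 14 had 0.41 ± 0.05, chiefly from a 143BTK- change of -0.33, chromosome 16 had -0.39 ± 0.09 from an A549 change of -0.38, and chromosome 4 had 0.31 ± 0.07.

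Called probe sets had mostly the sign of their chromosome. All 11 on chromosome 7, IGFBP3, PIP, GNG11, GPNMB, HSPB1, POLD2 and LSM5 among them, had negative differences, as did all 10 on chromosome 16 and all 11 on chromosome 2, while 19 of 20 on chromosome 17 and all 8 on chromosome 3 had positive ones. Of 164 called probe sets on the 17 chromosomes, 132 (80.5%) had the sign of their chromosome, against 63.0% of all 8070 tested there. The chromosome means were at most 0.46 in size. The smallest called difference was 0.72, a size set by the threshold for single probe sets, so it is not comparable with a chromosome mean. When chromosome medians were subtracted from the changes, 164 probe sets passed, 149 of them among the 237, and 21 of the 73 named probe sets no longer passed, with adjusted p of 0.0550 to 0.279. Without the called probe sets 17 chromosomes still differed. GPX2 and SLC7A7 on chromosome 14 had negative differences against the direction of that chromosome. Copy number was not measured, and its part in these differences was not tested. The authors examined log2 ratios by chromosome in each line and reported similar averages on all of them. They took this to exclude stable, clonal aneuploidies, and held a mixture of aneuploidies possible but less likely. Here, instead, each chromosome was set against all others and the difference between the lines was tested.

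**Figure D5:**
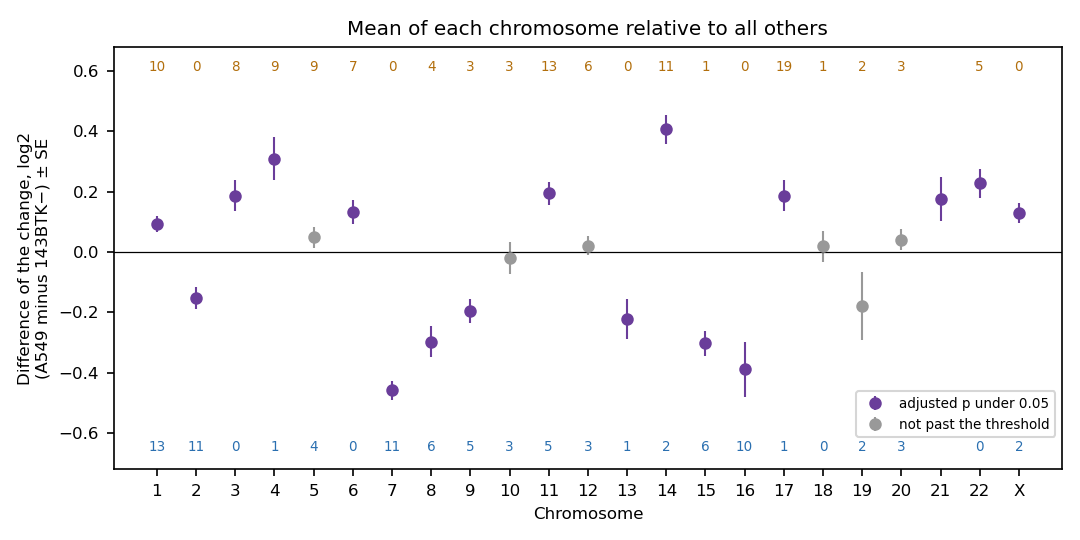
Difference of the change (A549 minus 143BTK-, log2, ± SE from limma) in the mean of each chromosome relative to all others. Purple points passed the threshold (17 of 23), and the numbers count called probe sets with a positive (top, orange) and a negative (bottom, blue) difference. Chromosome 7, at -0.46, has 0 above and 11 below.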

How the data were processed

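Labelled cRNA made from the total RNA of each sample was hybridized to an Affymetrix oligonucleotide array. The authors processed the scans with MAS5 and deposited 1 intensity (signal) per probe set on a linear scale, quantile-normalized over the 6 arrays of each line on its own. Whether a probe set is called present was not used here. Here log2 of the deposited signals, with 0 added, was fitted by limma 3.58.1 (R 4.3.3), with 1 mean for each of 4 groups and a variance that follows intensity. The difference of changes was tested two-sided by the moderated t-test of limma. Its degrees of freedom are the 8 residual ones plus those gained from the variance shared over probe sets. Benjamini-Hochberg adjustment was over the 12139 probe sets kept, those brightest on average in both lines. Per line they were as many as the study kept after removing probe sets called absent. Group means of signals are geometric. On the array 19071 probe sets had a single gene in the platform annotation, 1043 had several and 2169 none, and 19059 were matched to RefSeq (GRCh38.p14). A gene was represented in its group by its brightest kept probe set.

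Named genes were the 12 largest differences in each direction and the 10 opposite changes whose smaller change was largest, all with 4 group means above the limit, then members of 46 gene lists past the threshold, and up to 5 probe sets in each direction below the limit by adjusted p. Y-linked genes were not named. A gene that the rule names is not reported here. Members and lists were chosen with earlier results of these data known. Chromosomes were tested with the same contrast over 23. The procedure was tested on simulated data. The number of arrays limits the precision, and p-values measure the spread between cultures of one depleted population per line. Probe sets of UQCRFS1 and SLC25A6 had no single gene and are not reported. Figures were drawn with matplotlib 3.10.9 (Python 3.11.15). There were 24 alternatives.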

Additional observations from a re-analysis of the deposited data

Results flagged for a closer look

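The difference between the lines was itself tested in limma, and on that ground 237 probe sets and 17 chromosomes are listed here, with 67 probe sets whose changes were opposite. The 10 genes named for opposite changes had tested differences (A549 minus 143BTK-, log2) of 3.91 for OLFML3, 2.41 for OTUB2, -4.04 for IGFBP3, 2.88 for GSTM3, 2.75 for SLCO4A1, 2.68 for ALDH3A2, 2.13 for PDLIM5, 1.86 for UTP3, -2.71 for INPP4B and 1.80 for CDC5L. Groups of 3 arrays were not tested for single outlying arrays.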

How the results depend on the processing

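All 237 differences kept their sign in the alternatives in which they were tested, and of 73 named probe sets 33 stayed past the threshold in every alternative run, while 361 of their values were no longer past it and 0 reversed. The 237 (129 with A549 above, 108 below, 67 opposite) became 141, 75, 66 and 39 with a mean signal of at least 100 in both lines, where fewer probe sets are tested, 130, 63, 67 and 42 without the intensity trend, and 1108, 643, 465 and 282 with array weights, which ran from 0.433 (143BTK- ρ° B) to 2.77 (143BTK- ρ+ B) and kept all 237; the cause was not tested. Centring on chromosome medians left 76 with A549 above, and its share of calls with A549 above was 46.3% against 54.4%. Leaving out 1 array gave 61 to 311 probe sets in all, 25 to 190 with A549 above, 36 to 121 below, 20 to 97 opposite and 16 to 17 chromosomes. Adding 16 or 64 before log2 gave 307 and 330, quantile normalization over 12 arrays 285, no filter 229. Leaving out both parental C arrays gave 264 (154 of the 237), and leaving out 143BTK- ρ+ C and ρ° B 206 (148 of the 237). The leave-outs of array pairs for chromosomes, and chromosome means without called probe sets, were chosen after seeing the data. The main fit did not pair arrays by replicate letter. Deviations of same-lettered ρ+ and ρ° arrays correlated at 0.0605 to 0.117 in A549 and -0.0975 to 0.376 in 143BTK-. Arrays of unlike letters were not compared, so whether the letters pair the arrays was not tested. With the letter as a replicate block 187 probe sets passed (152 of them among the 237), 110 with A549 above, 77 below and 62 opposite, and 18 chromosomes. The 17 called chromosomes reversed in 0 of 19 settings. Chromosome 21 lost its call in 9, and chromosomes 6, 11 and X lost theirs in 1 each (adjusted p in limma of up to 0.276, 0.0573 and 0.163). At 31 of the 237 called probe sets both 143BTK- means were under 3 times the limit, where a fall could hardly be measured. The difference was negative at 20 of these and positive at 11.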
